A study of Mus musculus with 2 samples.

Results

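The miR-466 and miR-467 families were examined in the miRNA cargo of exosomes from 2 mouse pancreatic cell lines. Every mouse miRNA on the array whose name starts with miR-466 or miR-467 followed by a letter was taken, both arms of a hairpin included. This gave 35 members, 23 of miR-466 and 12 of miR-467, among the 1881 miRNAs of the array. In the exosomes of the cancer line 7 of the 35 were detected, against 29 in the exosomes of the ductal line. Over all 1881 miRNAs, 41.0% were detected in the exosomes of the cancer line and 54.8% in those of the ductal line. No member passed the filter as higher in the exosomes of the cancer line, and 28 passed it as lower. Of all miRNAs, 18.0% passed it as higher and 24.5% as lower. Among the 28 members, 22 were not detected in the exosomes of the cancer line and took a floor value there.

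KPC cells are a mouse pancreatic cancer line grown from a tumour of KrasLSL-G12D/+, Trp53LSL-R172H/+, Pdx1-Cre mice, in which the Pdx1 promoter drives Cre in pancreatic cells, and were kept in RPMI-1640 with 20% FBS. MPDC cells are a purchased mouse pancreatic ductal epithelial line, kept in DMEM with 10% FBS, and served as the control. Both lines were moved to medium with exosome-free FBS before supernatants were taken. KPC-exosomes and MPDC-exosomes were pelleted by differential ultracentrifugation, and their RNA was labelled with the dye Cy3. There was 1 array for each, on the same slide, so no difference below has a replicate check, no p-value is given, and line, medium, preparation and array cannot be told apart.

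A miRNA is a short RNA that guides Argonaute proteins to messenger RNAs, mostly by pairing through its seed, the bases near its 5′ end. Many genes for miR-466 and miR-467 lie, together with those for miR-297 and miR-669, in a repeated array within an intron of Sfmbt2, an imprinted Polycomb gene. This cluster is found in rodents and is best known from embryonic stem cells and the placenta. Its mature miRNAs are rich in short UG and CA repeats, so that members can resemble each other closely.

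The arrays report these miRNAs through short DNA probes that are complementary to them. For 1601 of the 1608 miRNAs of the array with a mature sequence in RefSeq (GRCm38.p6), the longest probe was the exact complement of the 3′ end. That held for the 6 members with such a sequence, and probe sequences from the array files were used for the others. A run of alternating T and G in a probe therefore stands for a run of A and C in the miRNA. The 6 mature sequences are shown 5′ to 3′ with the seed, bases 2 to 8, in capitals, because they show how far members of the same name can differ in the bases that choose targets.

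miR-466i-3p: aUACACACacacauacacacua
miR-466q: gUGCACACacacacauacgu
miR-467f: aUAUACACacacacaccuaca
miR-467g: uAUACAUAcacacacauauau
miR-466j: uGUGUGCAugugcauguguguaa
miR-466k: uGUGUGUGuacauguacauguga

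The 6 seeds were all different. A and C made up most of miR-466i-3p, miR-466q and miR-467f. miR-467g held 47.6% A, 28.6% U and 23.8% C, and G was absent from it as well as from miR-466i-3p and miR-467f. miR-466j and miR-466k were rich in U, at 39.1% of the bases each, against a median of 26.1% over the 1608 miRNAs. G made up 34.8% of miR-466j and 30.4% of miR-466k, against a median of 26.3%.

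Probes of the members detected in KPC-exosomes, and of 4 members bright in MPDC-exosomes alone, are shown next, the longest of each member, with the longest run of alternating T and G or of C and A in capitals. The first 6 hold the longest runs in the families.

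miR-466i-5p: CACACACACACACACA
miR-466q: acgtaTGTGTGTGTGTG
miR-467f: tgtagGTGTGTGTGTGT
miR-466h-3p: GTGTGTGTGTGcgt
miR-466f-3p: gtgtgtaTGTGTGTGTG
miR-466i-3p: tagtgtgtaTGTGTGTGTG
miR-466g: TGTGTGTGcatgtgtc
miR-467a-3p: tgtagGTGTGTGTatgtata
miR-467d-3p: gtgtagGTGTGTGTatg
miR-466b-3p: tcttaTGTGTGcgtgta
miR-467b-5p: catatACAtgcaggcact

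The 35 members were read by 98 probes of 13 to 22 bases, with 2 to 4 probes per member and 7 to 15 spots per probe. None of their 1050 spots was saturated on either array. A probe was counted as detected where its background-subtracted signal, in arbitrary units of intensity, exceeded 3 times the error that the scanner software gave it, and the signal of a miRNA is the sum over its detected probes. Probe affinities differ, so signals of different miRNAs are not amounts and only the same miRNA is compared between arrays. The spots of a detected probe had a median coefficient of variation of 7.39% in KPC-exosomes (15 probes) and 5.92% in MPDC-exosomes (75 probes). That is the spread within an array, and it leaves out the spread between cultures and preparations.

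The members nearest to the detection limit of 3 errors were the following. In KPC-exosomes the miRNA just outside was miR-467a-3p, whose best probe reached 1.88 errors, and the one just inside was miR-466g, at 4.97 errors. In MPDC-exosomes the pair was miR-467d-5p at 1.66 errors and miR-466a-5p at 5.40 errors. For the 28 members not detected in KPC-exosomes, 3 of 840 spots stood well above background by the scanner's own mark.

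The families were selected on the signals of these 2 arrays, after their lower signals and missing detection in KPC-exosomes had been seen, so the shares that follow are descriptions. Detection in KPC-exosomes held for 20.0% of the members, against 41.0% of the 1881 miRNAs. In MPDC-exosomes 82.9% of the members were detected, against 54.8% of all. The families were thus below the whole array in the first preparation and above it in the second.

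**Figure D1:**
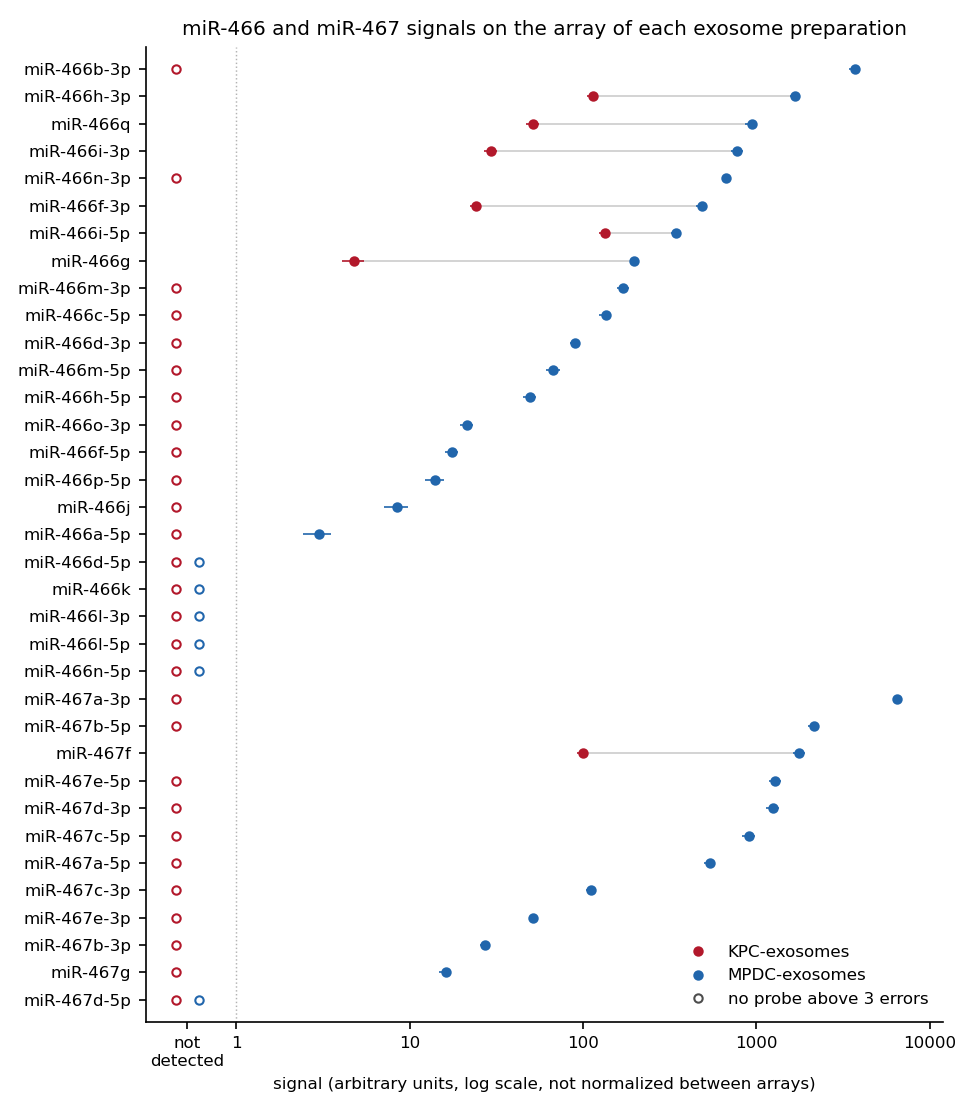
Signals of the 35 members, in arbitrary units on a log scale, before normalization between arrays. Filled points are KPC-exosomes (red) and MPDC-exosomes (blue) with the scanner error, and open points mark members with no probe above 3 errors. In blue, 29 members spread from 2.99 to 6519, while red holds 7 filled points, each left of its blue partner.

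Of the 7 members detected on both arrays, miR-466h-3p gave 114 ± 8.19 in KPC-exosomes and 1676 ± 119 in MPDC-exosomes, where ± is the scanner error. miR-467f gave 99.6 ± 7.47 and 1771 ± 132, in the same order. miR-466q gave 51.3 ± 4.50 and 939 ± 77.0. These 3 miRNAs, rich in A and C, were 14.7-fold, 17.8-fold and 18.3-fold lower in KPC-exosomes before any normalization.

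miR-466i-3p had signals of 29.5 ± 2.61 and 774 ± 60.2, which is 26.2-fold lower in KPC-exosomes. miR-466f-3p, which shares 17 bases of its longest probe with miR-466i-3p, had 24.1 ± 1.82 and 485 ± 33.5, which is 20.2-fold lower. miR-466g had 4.78 ± 0.702 and 198 ± 11.2, which is 41.4-fold lower and the widest gap of the 7. It was also the member with the largest scanner error, 0.227 on the log2 scale, and the one that was no longer detected in KPC-exosomes when 5 errors were asked for.

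miR-466i-5p, from the other arm of the miR-466i hairpin, stood apart. Its signal was 134 ± 9.62 in KPC-exosomes, the highest of the members on that array, and 346 ± 24.6 in MPDC-exosomes. The 2.58-fold gap, -1.37 ± 0.146 on the log2 scale, equalled the median gap of all 726 miRNAs detected on both arrays, which was also -1.37. After quantile normalization the value was 0.43, again next to the median of all, 0.53, so the direction of this member turned with the normalization. It is the only member detected on both arrays that the filter did not call.

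The probes of a miRNA gave like ratios. The ratio of the arrays differed by 0.87 on the log2 scale between the probes of miR-466g and by less between those of each of the other 6. For miR-466h-3p the log2 ratios of both probes lay between -3.89 and -3.88, and for miR-467f between -4.19 and -4.09. In miR-466f-3p the shortest of the 4 probes, of 14 bases, was not detected in KPC-exosomes and gave 11.5 ± 1.28 in MPDC-exosomes. The longest, of 17 bases, gave 14.6 ± 1.52 and 308 ± 30.8. Probes with 3 errors or less occurred in KPC-exosomes among the shorter ones of miR-466f-3p and miR-466g, and in no other of the 7 members.

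**Figure D2:**
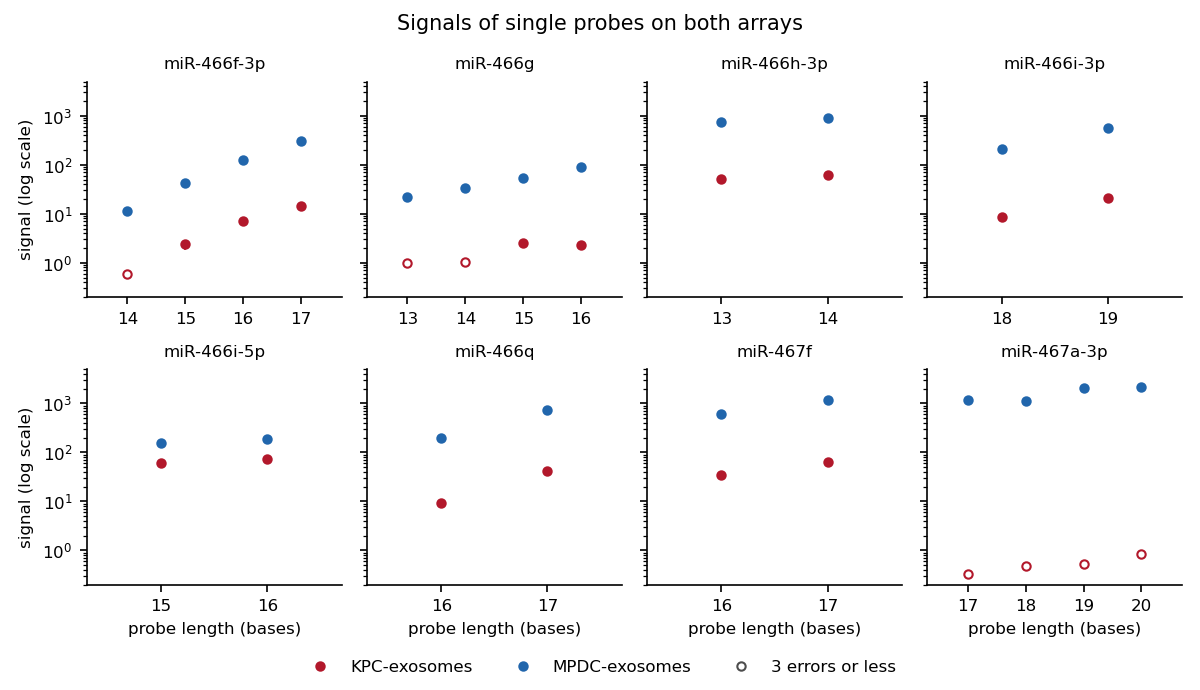
Signal of each probe (log scale, arbitrary units) against its length in bases, for the 7 members detected on both arrays and for miR-467a-3p. Red is KPC-exosomes, blue MPDC-exosomes, bars are scanner errors and open points lie at 3 errors or less. The gap between the colours is alike along the probes of a member, small for miR-466i-5p, and widest for miR-467a-3p, whose 4 red points are all open.

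The other 22 members with a signal were detected in MPDC-exosomes only. A fold cannot be given against an undetected miRNA, so each has a bound, set against the lowest detected signal in KPC-exosomes (1.41) or the miRNA's own sum over all probes there, whichever was higher. Before normalization, miR-467a-3p gave 6519 ± 339 in MPDC-exosomes and was at least 3014-fold lower in KPC-exosomes. miR-466b-3p, which has 8 gene copies within Sfmbt2, gave 3711 ± 263 and was at least 2638-fold lower. miR-467b-5p gave 2145 ± 167 and was at least 1525-fold lower. Each of these had all of its probes detected on the MPDC array and none on the KPC array.

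miR-467e-5p followed with 1285 ± 101 and at least 914-fold, miR-467d-3p with 1245 ± 108 and at least 886-fold, and miR-467c-5p with 905 ± 77.5 and at least 643-fold. In all, 9 of the 22 bounds reached 100-fold, 19 reached 10-fold, and their median was 71.5-fold. The dimmest were miR-466p-5p with 14.0 ± 1.73, miR-466j with 8.43 ± 1.31 and miR-466a-5p with 2.99 ± 0.554, whose bound was 2.12-fold. A low signal in MPDC-exosomes leaves little room for a bound, so these 3 carry little information on the size of the difference.

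The remaining 13 of the 22 had signals from 16.1 to 671 in MPDC-exosomes. They were, from the brightest, miR-466n-3p, miR-467a-5p, miR-466m-3p, miR-466c-5p, miR-467c-3p, miR-466d-3p, miR-466m-5p, miR-467e-3p, miR-466h-5p, miR-467b-3p, miR-466o-3p, miR-466f-5p and miR-467g. Their bounds before normalization ran from 11.5-fold for miR-467g to 477-fold for miR-466n-3p.

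Detection failed on both arrays for 6 members: miR-466d-5p, miR-466k, miR-466l-3p, miR-466l-5p, miR-466n-5p and miR-467d-5p. All but miR-466k have their gene within Sfmbt2. For all but miR-466k, the partner arm of the same hairpin could be set beside them, and it was detected in MPDC-exosomes for miR-466d, miR-466n and miR-467d but not for miR-466l, which was undetected on both arms.

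The study's filter asked for detection on 1 or both arrays and a difference of at least 2-fold. Here it was applied after quantile normalization with undetected miRNAs at a floor of 0.1, the setting that gave back the deposited values. It called 28 of the 35 members (80.0%) lower in KPC-exosomes, against 24.5% of the 1881 miRNAs, and no member higher, against 18.0% of all. With bounds in place of the floor, 23 members were at least 2-fold lower after normalization, against 14.1% of all miRNAs. Without normalization 29 were, against 37.1% of all. Of the 22 bounds, 17 reached 2-fold after normalization, 2 fell short of it, and miR-466a-5p, miR-466j and miR-466p-5p had none.

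The normalization moved every value. The median difference over the 726 miRNAs detected on both arrays was -1.37 on the log2 scale before it and 0.53 after it, while the 4 spike-in controls differed by a mean of 0.03 (range -0.31 to 0.38). Without normalization 85.9% of all calls were lower calls, against 57.6% with it. The 7 members detected on both arrays had a median of -4.20 before and -2.49 after. Relative to the median of all, that is -2.82 before and -3.01 after, so the distance of the members from the rest changed little.

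**Figure D3:**
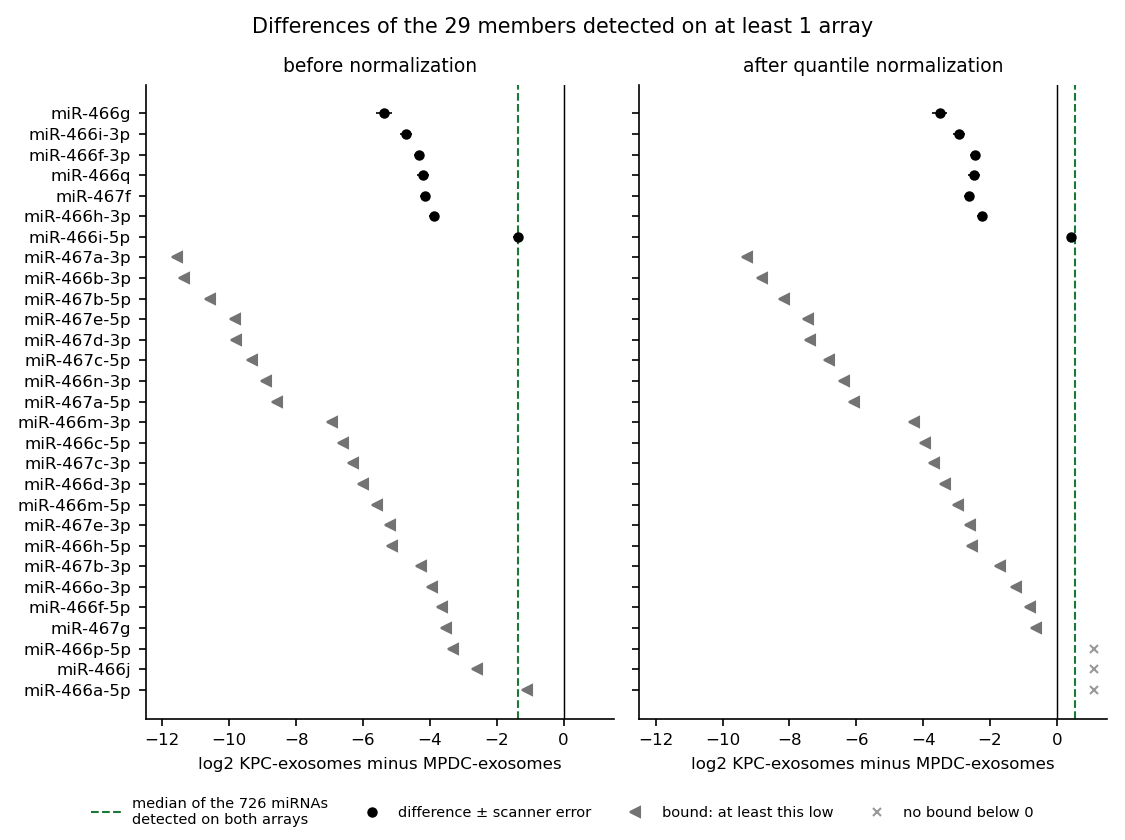
Difference of KPC-exosomes from MPDC-exosomes on the log2 scale for the 29 members detected on at least 1 array, before (left) and after (right) quantile normalization. Points with bars are members detected on both arrays with their scanner error, arrowheads are bounds, crosses mark members without a bound below 0, and dashed lines the median over 726 miRNAs measured in both preparations. miR-466i-5p lies on the dashed line on the left (-1.37) and beside it on the right, and the other 6 points lie left of it on both sides.

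Detection in KPC-exosomes differed with the length of the alternating run in the probe. The probes of 6 members held a run of 10 bases or more, and all 6 were detected in KPC-exosomes: miR-466f-3p and miR-466i-3p with a run of 10, miR-466h-3p with 11, miR-466q and miR-467f with 12, and miR-466i-5p with 16. Of the 20 members with a run of 6 to 9 bases, 1 was detected there, miR-466g with a run of 8. Of the 9 members with a shorter run, 0 were. In MPDC-exosomes the counts were 6 of 6, 18 of 20 and 5 of 9.

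The pair printed above as miR-467f and miR-467a-3p shows the contrast between probes that share 13 bases. They start with the same bases, and the run goes on to 12 in miR-467f and stops at 8 in miR-467a-3p. Both gave a strong signal in MPDC-exosomes, 1771 and 6519, and miR-467f alone was detected in KPC-exosomes. miR-467d-3p, also with a run of 8 and 13 bases in common with miR-467f, was detected in MPDC-exosomes only.

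Outside the families, 5 miRNAs had probes with such a run of 10 bases or more, and all 5 were detected on both arrays. Among the 5 were miR-669c-3p, miR-669f-3p and miR-669p-3p. The counts outside the families include the 26 miRNAs of miR-297 and miR-669. With runs of 6 to 9 bases, 12 of 54 (22.2%) were detected in KPC-exosomes and 35 (64.8%) in MPDC-exosomes. With shorter runs the counts were 748 of 1787 (41.9%) and 962 (53.8%). A run of 10 or more was found in 0.585% of all miRNAs and in 17.1% of the members, and one of 6 or more in 74.3% of the members and 3.20% of the other miRNAs. Whether a probe with a long run also catches other RNA with the same repeat was not tested.

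**Figure D4:**
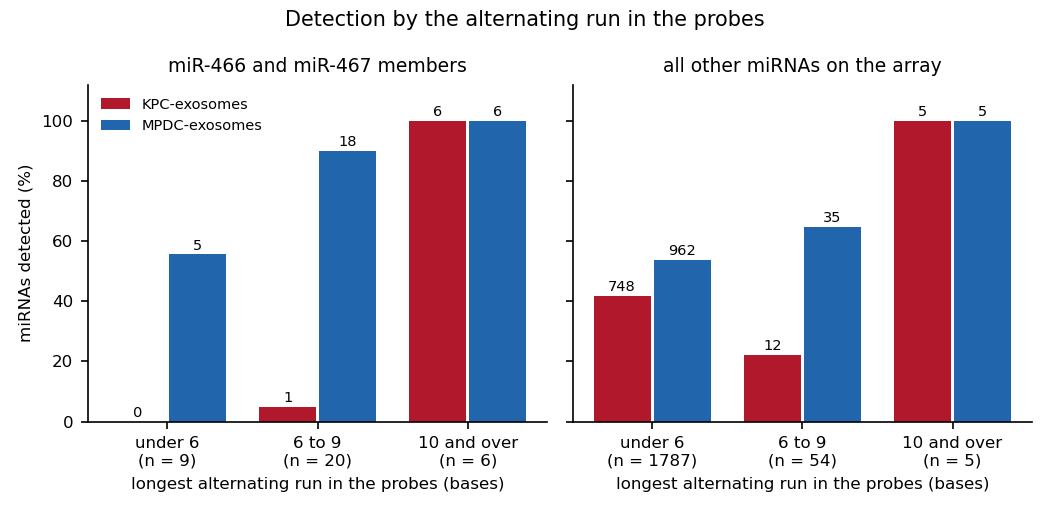
Share of miRNAs detected (%), by the longest alternating run in their probes, for the members (left) and all other miRNAs (right), in KPC-exosomes (red) and MPDC-exosomes (blue). Numbers above the bars are the miRNAs detected. The red bars of the members go from 0 of 9 through 1 of 20 to 6 of 6, and the bars of the other miRNAs reach 5 of 5 in the last class on both arrays.

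The 11 miRNAs with a run of 10 bases or more were also split by the kind of run, a split chosen after the values were seen. The 5 miRNAs outside the families are shown with the run in capitals, because each holds a run of 10 bases or more, as 6 members do.

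miR-669p-3p: atacGTGTGTGTGTGTatg
miR-669c-3p: tttactTGTGTGTGTGTG
miR-669f-3p: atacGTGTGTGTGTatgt
miR-574-5p: acacactCACACACACAC
miR-3082-5p: acacagACACACACAC

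Before normalization, the 8 miRNAs with a T and G run, 5 of them members, differed by -7.25 to -3.88 on the log2 scale. The 3 with a C and A run, miR-466i-5p among them, differed by -2.01 to -1.37. miR-669f-3p lay at the far end, with 12.8 ± 1.61 in KPC-exosomes and 1938 ± 154 in MPDC-exosomes. miR-574-5p, which lies outside the Sfmbt2 cluster, had 79.3 ± 6.12 and 220 in the same order, a difference of -1.47 ± 0.158, within a scanner error of miR-466i-5p. The ranges of the 2 kinds of run did not overlap among these 11, where all 8 with a T and G run belong to miR-466, miR-467 or miR-669. Members with shorter runs cannot show whether this split holds, because miR-466g alone among them was detected on both arrays. Of the 8 members with a C and A run of 6 to 9 bases, 0 were detected in KPC-exosomes and 7 in MPDC-exosomes. Their bounds before normalization ran from 2.12-fold to 96.3-fold. Of the 12 members with a T and G run of that length, 1 and 11 were detected, in the same order. The bounds of those detected in MPDC-exosomes only ran from 11.5-fold for miR-467g to 3014-fold for miR-467a-3p. A bound is a lower limit that rises with the signal in MPDC-exosomes. That signal reached 6519 for these T and G runs and 135 for the C and A runs of 6 to 9 bases.

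**Figure D5:**
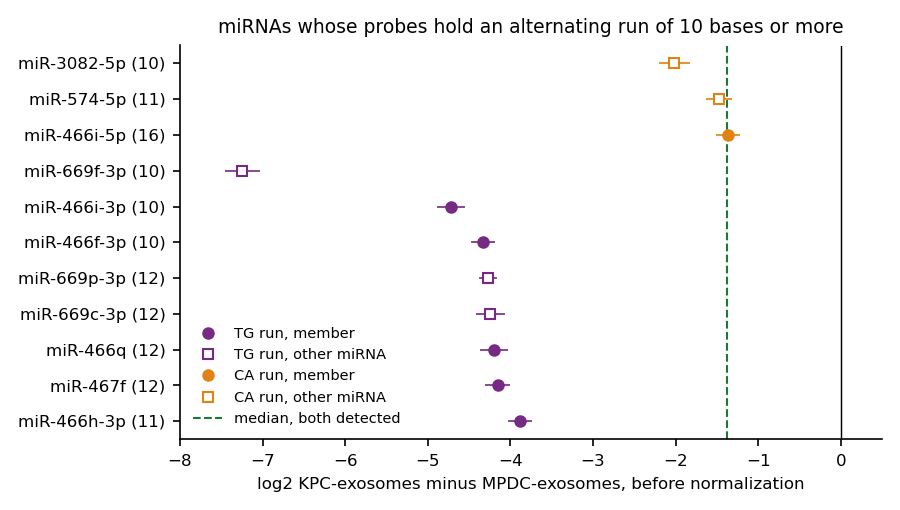
Difference of KPC-exosomes from MPDC-exosomes, on the log2 scale before normalization, for the 11 miRNAs whose probes hold an alternating run of at least 10 bases (length in brackets), with scanner errors. Purple is a T and G run, orange a C and A run, circles are members, squares other miRNAs, and the dashed line is the median over the 726 miRNAs measured in both preparations. The 3 orange points lie between -2.01 and -1.37 and the 8 purple ones at -3.88 or below.

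The probes of 6 members contain a stretch of at least 10 bases that is its own reverse complement, shown in capitals, so that a probe can pair with itself or with its neighbours. Over all miRNAs 14 (0.744%) had such a stretch.

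miR-466l-5p: aTACATGTACATGTAcacaca
miR-466a-5p: taTGTACATGTACAcacacat
miR-466p-5p: aTGTACATGTACAcacaca
miR-466n-5p: ACATGTACATGTacgcac
miR-466k: tcACATGTACATGTacaca
miR-466d-5p: CATGTACATGtacgcaca

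None of these 6 was detected in KPC-exosomes, and 2, miR-466a-5p and miR-466p-5p, were detected in MPDC-exosomes. The other 4 were undetected on both arrays and make up 4 of the 6 members for which that was so. Of the 8 other miRNAs with such a stretch, 2 were detected in KPC-exosomes and 5 in MPDC-exosomes. Whether self-pairing lowered a signal was not tested.

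By arm, the 3p members of miR-466 were detected in MPDC-exosomes in 8 of 9 cases and in KPC-exosomes in 3. The 5p members of miR-466 were detected in 7 of 10 cases and in 1. For miR-467 the 3p arms gave 5 of 5 and 0, and the 5p arms 4 of 5 and 0. The members named without an arm, miR-466g, miR-466j, miR-466k, miR-466q, miR-467f and miR-467g, gave 5 of 6 and 3 of 6, as 3 of 4 and 2 for miR-466 and 2 of 2 and 1 for miR-467. Every miR-467 member with an arm in its name was thus undetected in KPC-exosomes, and miR-467f was the only miR-467 detected there.

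By position, 28 members have at least 1 gene in RefSeq within Sfmbt2, at chr2:10370440-10595253 of GRCm38.p6. Their 37 genes there lie between positions 10466663 and 10516217. The largest sets were those of miR-467a, with 10 genes, and miR-466b, with 8. Of these 28 members, 3 were detected in KPC-exosomes and 23 in MPDC-exosomes. miR-466f-3p, among the 3, and miR-466f-5p also have a gene outside Sfmbt2, on chromosome 13. The 7 members without a gene in Sfmbt2 were miR-466i-3p and miR-466i-5p (chromosome 13), miR-466j (chromosome 10), miR-466k and miR-466q (chromosome 3), miR-467f (chromosome 11) and miR-467g (chromosome 5). Of these, 4 were detected in KPC-exosomes and 6 in MPDC-exosomes, and the 4 are also among the 6 with a run of 10 bases or more, so position and run overlap in these families. The arrays do not tell gene copies apart.

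The same cluster also holds genes of miR-297 and miR-669. By name, 26 such miRNAs were on the array, and the position of each was not looked up. Of these, 23 were called lower in KPC-exosomes and 0 higher, against 24.5% and 18.0% of all miRNAs. Detection held for 4 in KPC-exosomes and 23 in MPDC-exosomes, against 41.0% and 54.8% of all. miR-669n gave 3.01 and 1745 in KPC-exosomes and MPDC-exosomes, and miR-297c-5p was undetected in the first and gave 865 in the second. For the 4 with a signal in both preparations the median was -5.76 on the log2 scale before normalization, against -1.37 for all miRNAs detected on both arrays.

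Members also resembled each other in their probes. The longest probes of 29 of the 35 members shared at least 12 bases with that of another member, in 41 of 595 pairs, and those of miR-467c-3p and miR-467e-3p shared 20. The array files list another current name for the probes of 4 members, among them miR-466a-3p for those of miR-466b-3p and miR-669m-5p for those of miR-466m-5p. Whether probes of 1 member also caught another was not tested.

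Marker miRNAs differed between the preparations as well. Of 6 epithelial miRNAs (the miR-200 family and miR-205-5p), 5 were detected in KPC-exosomes and 6 in MPDC-exosomes, with summed signals of 98.8 and 1763, and miR-205-5p was the one not detected. Of 5 mesenchymal miRNAs (miR-199a, miR-214, miR-143 and miR-145a), 0 were detected in KPC-exosomes and 5 in MPDC-exosomes, with a summed signal of 226 in the latter. Of 4 acinar and islet miRNAs, miR-217-5p alone was detected, in KPC-exosomes, at 60.9. These sums add probes of unlike affinity and were not normalized between arrays. The median difference of all miRNAs detected on both arrays was -1.37 on the log2 scale before normalization. Of all miRNAs, 41.0% were detected in KPC-exosomes and 54.8% in MPDC-exosomes. The part of cell identity in the difference of the families was not tested.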

How the data were processed

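For each array the authors deposited a Feature Extraction file (Agilent), in which signals are linear intensities, background-subtracted within the array and not normalized between arrays. The file headers give version 10.7.1.1, and the submitters' processing notes name 9.1. A deposited table gives 1 log2 value for each miRNA and array, which the authors had normalized in GeneSpring by a method not given in the sources used here.

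For each miRNA the total signals of probes above 3 errors were summed, miRNAs with no such probe were set to 0.1, and the log2 signals of the 1881 miRNAs and 21 control features were quantile normalized with ties averaged. This gave the deposited values to within 1.11e-05. Quantile normalization makes the distributions of both arrays alike and so removes a difference in total miRNA. Calls needed detection on 1 or both arrays and a difference of at least 2-fold. With 1 array per group there was no test, and differences were set beside the scanner error. Depth is not defined for arrays, and their number limits the precision of every value.

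The members, gene lists and classes of run length were chosen with earlier results of these data known. The members named with their values were those detected in KPC-exosomes, the 10 brightest and 3 dimmest in MPDC-exosomes, those detected on neither array and those next to the detection limit, with all other members given by name and range. miRNAs outside the families were named for a run of 10 bases or more, 2 as examples of miR-297 and miR-669, and others as cell type markers. Runs and self-complementary stretches were read from the probe sequences, since RefSeq mature sequences were at hand for 6 of the 35 members, while runs in mature sequences had been planned. The shared stretch of 2 probes was the longest common run of bases.

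The calls after quantile normalization were tested on simulated data. There, as many miRNAs were raised as lowered, and each kept its detection on both arrays. The simulation therefore does not cover calls that rest on the floor value, or an overall shift between arrays. The search for runs and self-complementary stretches was checked on short made-up sequences only, and the bounds were not tested in this way. Python 3.11.15, numpy 2.4.6, pandas 2.3.3, matplotlib 3.10.9, R 4.3.3 and limma 3.58.1 were used. The alternatives were other scalings, signals, background correction, detection limits and thresholds.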

Additional observations from a re-analysis of the deposited data

How the results depend on the processing

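The count of members called lower in KPC-exosomes, 28 of 35, lay between 27 and 29 under 11 of the 13 other settings, and 0 members were called higher under each of the 13. Over all miRNAs, the share called lower under these 11 settings ran from 17.5% (at least 4-fold) to 39.3% (spike-in scaling). Without normalization it was 38.9%. The count of members was 18 with normexp background correction (offset 50) of the mean spot signals, where 8.19% of all miRNAs were called lower. It was 6 where detection on both arrays was required, which leaves 7 members to call, and 8.24% of all miRNAs were called lower there. With bounds the count of 23 rose to 26 and 27 when scaled by the median and the 75th percentile of miRNAs measured in both preparations, and to 29 without normalization or with spike-in scaling. The median log2 difference of the 7 members detected on both arrays, -2.49, was -4.20 without normalization, -4.22 with spike-in scaling, -2.65 with scaling by the 75th percentile, -2.69 with the processed signal so scaled and -1.996 with normexp. Set against the median of all miRNAs it was -2.15 with normexp and between -3.13 and -2.82 under the other settings. Scaling by a constant per array cannot change this distance. It was therefore -2.82 without normalization and with scaling by the 75th percentile, the median or the spike-in controls. Settings that alter only the rule for a call cannot change it either, so none of these is a check on it. miR-466i-5p, at 0.43, was -1.37 without normalization and -1.39 with spike-in scaling, and was above 0 under the other 6 settings, while the other 6 members were below 0 under all 8. The 5-error limit left 6 members detected in KPC-exosomes. No paired analysis was possible because each group had 1 array.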
